A study of Mus musculus with 4 samples.

Results

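The TCF/LEF factors are the DNA-binding end of canonical Wnt signalling, and 8 genes of this transcriptional switch were examined for open chromatin in mouse oligodendrocytes (OLs) and in the oligodendrocyte progenitor cells (OPCs) that give rise to them. The set was chosen by gene name: the 4 TCF/LEF genes Tcf7, Tcf7l1, Tcf7l2 and Lef1, the beta-catenin gene Ctnnb1, and the Groucho genes Tle1, Tle3 and Tle4, out of 21887 protein-coding genes. In this pathway, TCF/LEF proteins sit on DNA with Groucho corepressors until stabilised beta-catenin enters the nucleus, displaces them and turns target genes on. In the oligodendrocyte lineage, Tcf7l2 is known as a factor of newly differentiating cells and as a partner of both beta-catenin and repressor complexes, and sustained beta-catenin activity is known to delay differentiation.

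Both OLs and OPCs were grown from the mouse epiblast stem cell (EpiSC) lines 129O1 and EpiSC5, with 1 library of each cell type per line, so n = 2 libraries in each group. The OLs were sorted for the surface antigen O1. The OPCs had been sorted for CD140a and NG2 after 4 passages and then expanded in medium with 20 ng/mL each of the growth factors bFGF and PDGFA. Per the labels, SHH was used in neither maintenance nor differentiation. The strains behind the lines are given as 129SvEv and 129S1/SvImJ, with no strain assigned to a line except by word order. No time of differentiation is given for the OLs, and nothing says that the OL and OPC libraries of a line came from separate differentiations. A p-value here sets a difference against the spread between the 2 libraries of a group. That spread was estimated with the package limma, largely from genes of similar coverage and little from the gene itself. It holds line differences and technical variation together. Omni-ATAC-seq, an assay that uses Tn5 transposase to cut and tag open DNA, was run on 50000 cells per library.

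The deposited data are 1 peak list per library on the mouse build mm10. They held 127196 peaks over 35.02 Mb in 129O1 OLs and 152595 peaks over 41.2 Mb in EpiSC5 OLs, against 129534 peaks over 38.63 Mb in 129O1 OPCs and 125002 peaks over 44.1 Mb in EpiSC5 OPCs. The quantity compared per gene is the length of sequence inside peaks, from 2 kb before to 2 kb after the gene, scaled so that every list has the same total, and called scaled covered kb below. Peak lists hold no read counts, so depth is unknown and a missing peak means only that none passed the caller's threshold. A smaller share of cells with a site open and a less open site in every cell cannot be told apart in these bulk libraries. As a check of the labels, 6 of 7 tested OL marker genes had more covered sequence in OLs, led by Enpp6 with 5.165 and 5.195 kb in OLs against 2.10 and 2.18 kb in OPCs, and by Ugt8a with 4.47 and 4.10 kb in OLs against 2.27 and 2.10 kb in OPCs. Of the OPC marker genes, Sox6 was called higher in OLs, with 22.8 and 24.2 kb in OLs against 16.9 and 15.7 kb in OPCs, while Cspg4 had 4.49 and 4.29 kb in OLs against 4.22 and 4.01 kb in OPCs and was not called. Of the pluripotency genes, Pou5f1 and Zfp42 had no peak in any list, while Fgf5, Nanog and Sall4 had peaks in every list. Fgf5 had 0.930 and 0.705 kb in OLs against 1.01 and 0.941 kb in OPCs and was not called.

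The stretches of DNA just upstream of the starts are shown first for the members on which the accounts of starts and of cell-type-specific regions turn. Each is 250 bases of the RefSeq GRCm38.p6 assembly (mm10), 5′ to 3′ on the gene's strand, ending at the base before the annotated start. Capitals mark bases inside a peak of all 4 lists, except for Lef1, where they mark bases inside a peak of both OPC lists. Tcf7l2 has an upstream start with peaks in every library and an internal start with none, Lef1 is the member whose start was not in a peak of every list, and Tle3 is the member with the densest coverage.
Tcf7l2, first start (plus strand, chr19:55741560-55741809): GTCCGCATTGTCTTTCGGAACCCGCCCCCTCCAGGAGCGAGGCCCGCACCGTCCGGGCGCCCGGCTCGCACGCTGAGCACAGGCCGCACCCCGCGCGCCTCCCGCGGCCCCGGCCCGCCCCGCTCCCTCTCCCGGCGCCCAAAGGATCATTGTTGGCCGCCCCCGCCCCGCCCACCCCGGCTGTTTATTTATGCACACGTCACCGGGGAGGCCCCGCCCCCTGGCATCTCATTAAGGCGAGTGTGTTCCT
Tcf7l2, internal start (plus strand, chr19:55895071-55895320): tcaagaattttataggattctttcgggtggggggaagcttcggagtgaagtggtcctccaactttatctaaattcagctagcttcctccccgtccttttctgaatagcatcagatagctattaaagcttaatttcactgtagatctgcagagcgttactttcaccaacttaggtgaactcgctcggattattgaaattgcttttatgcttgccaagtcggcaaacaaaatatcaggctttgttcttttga
Lef1, first start (plus strand, chr3:131110047-131110296): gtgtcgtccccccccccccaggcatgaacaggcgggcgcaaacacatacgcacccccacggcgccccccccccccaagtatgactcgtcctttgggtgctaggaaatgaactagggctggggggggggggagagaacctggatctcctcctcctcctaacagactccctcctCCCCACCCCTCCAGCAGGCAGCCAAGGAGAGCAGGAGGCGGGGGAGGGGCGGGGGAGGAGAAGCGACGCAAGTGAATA
Tle3, first start (plus strand, chr9:61372116-61372365): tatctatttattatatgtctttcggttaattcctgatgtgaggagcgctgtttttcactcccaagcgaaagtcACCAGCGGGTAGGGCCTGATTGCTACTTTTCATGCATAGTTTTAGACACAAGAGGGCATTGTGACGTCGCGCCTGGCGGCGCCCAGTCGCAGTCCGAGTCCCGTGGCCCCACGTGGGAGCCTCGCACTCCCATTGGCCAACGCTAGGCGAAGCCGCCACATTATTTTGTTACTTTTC
All 250 bases before the first Tcf7l2 start lay inside peaks in every library, with a GC content of 72.8%, whereas none of the 250 bases before its internal start did, with a GC content of 40.8%. At Lef1, peaks covered 0 of these bases in 129O1 OLs and 41 in EpiSC5 OLs, against 78 in 129O1 OPCs and 80 in EpiSC5 OPCs. At Tle3 they covered 192 and 204 bases in OLs, against 177 and 184 bases in OPCs.

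No member passed the test for a difference in total covered sequence between OLs and OPCs. Of all 14543 genes tested, 11% were called higher in OLs and 8.63% lower (limma, Benjamini-Hochberg adjusted p below 0.05), 19.6% in either direction, so 0 of 8 members stands against that background; 1 of the 8, Tle4, had an unadjusted p below 0.05. The members' median log2 difference, OL minus OPC, was -0.003, against -0.02 over all tested genes. All 8 passed the filter on low coverage, which kept genes with a mean of at least 500 bp. The same total nevertheless held different regions in the 2 cell types, and these are described gene by gene after the totals.

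**Figure D1:**
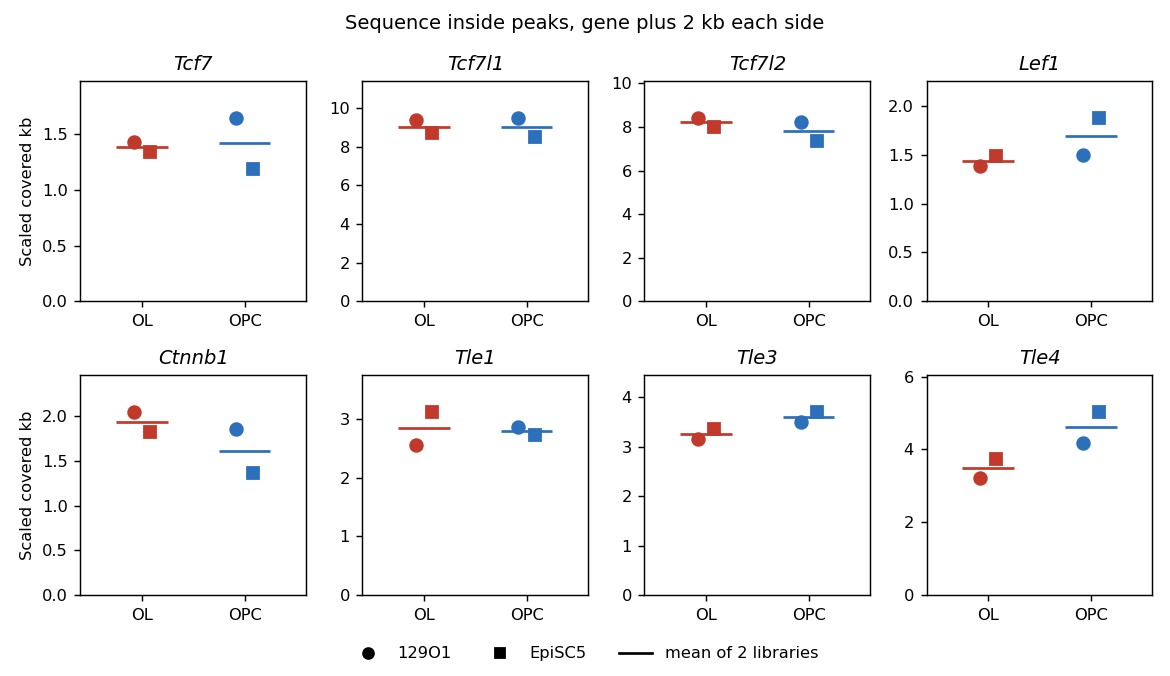
Scaled covered kb (y axis, starting at 0) of each member in OL and OPC libraries (x axis), with a circle for line 129O1, a square for EpiSC5 and a bar for the mean of 2 libraries. The OL points lie below both OPC points in Lef1, Tle3 and Tle4, and the groups overlap in the other 5 genes.

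Tcf7l2 (chr19:55741797-55933659, plus strand) encodes the TCF/LEF factor best known in the oligodendrocyte lineage. It had 8.43 kb of covered sequence in 129O1 OLs and 8.02 kb in EpiSC5 OLs, against 8.24 kb in 129O1 OPCs and 7.38 kb in EpiSC5 OPCs. The groups overlapped, and the log2 difference of 0.07 (95% interval -0.19 to 0.34, adjusted p = 0.769, limma) was not called. Tcf7l1 (chr6:72626371-72789045, minus strand), a factor known mainly as a repressor of Wnt targets in stem cells, had 9.35 and 8.71 kb in OLs, against 9.49 and 8.49 kb in OPCs. Its groups overlapped, with a log2 difference of 0.01 (95% interval -0.25 to 0.27, adjusted p = 0.983, limma). Tcf7 (chr11:52246527-52283383, minus strand), which encodes TCF1, a factor known for its role in T cells, had 1.43 and 1.34 kb in OLs, against 1.65 and 1.19 kb in OPCs. Both OL values lay between the OPC values, and the log2 difference was -0.01 (95% interval -0.38 to 0.35, adjusted p = 0.978, limma).

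Lef1 (chr3:131110297-131224357, plus strand), a factor known as an activator with beta-catenin and as a Wnt target itself, had 1.39 kb in 129O1 OLs and 1.49 kb in EpiSC5 OLs, against 1.5 kb in 129O1 OPCs and 1.88 kb in EpiSC5 OPCs. Both OL libraries lay below both OPC libraries, by a margin that was small beside the spread of the OPC libraries, and the log2 difference of -0.20 (95% interval -0.55 to 0.14, adjusted p = 0.463, limma) was not called. Ctnnb1 (chr9:120933400-120960507, plus strand), the coactivator itself and also a part of cell adhesion, had 2.05 and 1.82 kb in OLs, against 1.85 and 1.37 kb in OPCs. It was the member with the most positive difference, log2 0.25 (95% interval -0.11 to 0.60, adjusted p = 0.361, limma), and its groups overlapped.

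Among the Groucho genes, which encode corepressors that TCF/LEF proteins recruit, Tle4 (chr19:14448072-14598183, minus strand) had 3.23 kb in 129O1 OLs and 3.74 kb in EpiSC5 OLs, against 4.17 kb in 129O1 OPCs and 5.04 kb in EpiSC5 OPCs. The OL libraries lay below the OPC libraries in both lines, with a log2 difference of -0.38 (95% interval -0.70 to -0.06) that did not pass the adjustment (adjusted p = 0.0876, limma). Without the 129O1 OPC library the log2 difference was -0.51. With all 4 libraries and the whole gene, the alternative settings gave log2 differences from -0.50 to -0.10. Their adjusted p ran from 0.0666 to 0.834 (limma). Tle3 (chr9:61372326-61418497, plus strand) had 3.16 and 3.35 kb in OLs, against 3.49 and 3.71 kb in OPCs. Its OL values were below its OPC values in both lines by log2 -0.14 in each, and the difference was not called (adjusted p = 0.599, limma). Tle1 (chr4:72109945-72200989, minus strand) had 2.57 and 3.13 kb in OLs, against 2.87 and 2.74 kb in OPCs, so that the OPC values lay between the OL values (log2 0.02, adjusted p = 0.966, limma).

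Lef1, Tle3 and Tle4 are the 3 members whose OL libraries both lay below both OPC libraries, a pattern found in 28.1% of tested genes, and no member showed the converse, which 27.4% of tested genes did. The summed coverage of marker lists for other cell types moved the same way. It was 2.09 and 1.52 kb in OLs against 7.22 and 6.78 kb in OPCs for 5 vascular and mesenchymal genes, of which all 4 tested were called lower in OLs, led by Prrx1 and Flt1, and Cldn5 had no peak in any list. It was 6.96 and 6.77 kb in OLs against 10.0 and 10.2 kb in OPCs for 5 astrocyte genes, of which 3 were called lower in OLs. It was 21.0 and 19.6 kb in OLs against 21.8 and 24.8 kb in OPCs for 5 neuron genes, of which 3 were called lower in OLs. The part of other cells in the Lef1, Tle3 and Tle4 values was not tested. The microglia list stood at 3.37 and 3.67 kb in OLs against 3.27 and 3.25 kb in OPCs, with 0 genes called.

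**Figure D2:**
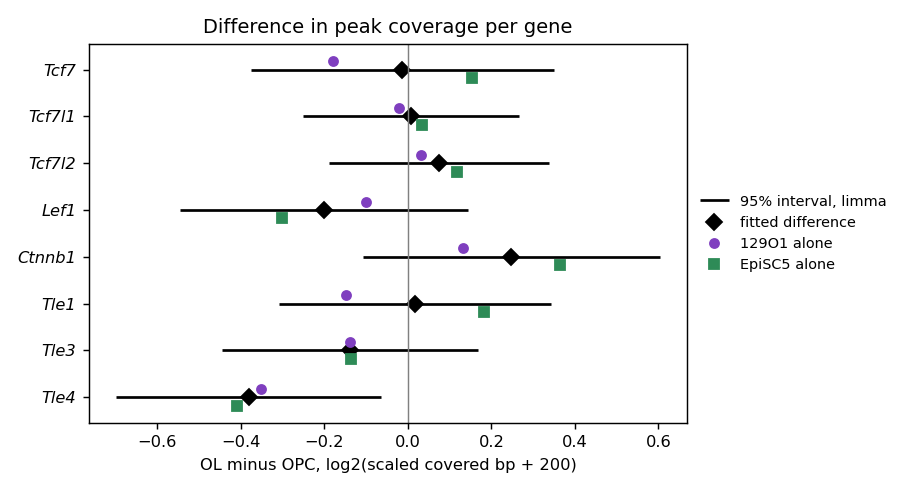
Difference OL minus OPC in log2(scaled covered bp + 200) on the x axis for each member (y axis), with the fitted value as a diamond, its 95% interval from limma as a line, and the difference within each cell line as a circle (129O1) and a square (EpiSC5). Every interval but that of Tle4 spans 0, and the lines point in opposite directions for Tcf7, Tcf7l1 and Tle1.

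Compared per length over both cell types, the density of covered sequence differed widely among the members. Tle3 was the densest, at 68.3 ± 4.63 bp of peak per kb (SD over 4 libraries), at percentile 68.5 of the tested genes. It was followed by Ctnnb1 with 57.03 ± 9.26, Tcf7l1 with 54.1 ± 2.901, Tcf7l2 with 40.9 ± 2.33, Tcf7 with 34.3 ± 4.72, Tle1 with 29.7 ± 2.50 and Tle4 with 26.2 ± 4.98 bp per kb. Lef1 was the sparsest, at 13.2 ± 1.84 bp per kb and percentile 5.80. The neighbours Ctnnb1 and Tcf7l1, Tcf7 and Tle1, and Tle1 and Tle4 lay within 1 SD of each other, so their order is not resolved.

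Behind these totals, regions were compared one by one. Overlapping or touching peaks of the 4 lists were merged, and a region was called OL-only if both OL lists and no OPC list held a peak there, OPC-only in the converse case, and shared if all 4 lists did. The 8 genes held 181 regions, of which 27 (14.9%) were OL-only, 22 (12.2%) OPC-only and 47 (26.0%) shared, and the other 85 (47.0%) had another pattern, 61 of them a peak in 1 list alone. Over 141580 regions in all protein-coding gene intervals, 16.8% were OL-only, 8.84% OPC-only, 26.8% shared and 47.6% of another pattern. The members' OL-only and shared shares were slightly below those of all genes and their OPC-only share was above it. Every one of the 8 held at least 1 OL-only or OPC-only region, as 62.5% of tested genes did, and 5 of them held both kinds, as 26.2% of tested genes did. These shares of tested genes were not matched for gene length or number of regions. Of the 49 OL-only and OPC-only regions, 47 lay more than 2 kb from the gene start. Most shared regions did too, since 16 of the 47 lay within 2 kb of it. The same shares over all genes were not computed. With 2 against 2 libraries these counts are descriptions, with no test.

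By role, the 4 TCF/LEF genes held 17 OL-only, 12 OPC-only and 34 shared regions among 116. The 3 Groucho genes held 8 OL-only, 10 OPC-only and 12 shared regions among 59, and Ctnnb1 held 2 OL-only, 0 OPC-only and 1 shared among 6. The OL-only regions were small, with a median of 181.5 bp against 196 bp for all OL-only regions, and the OPC-only regions had a median of 229.5 bp against 215 bp for all OPC-only regions.

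**Figure D3:**
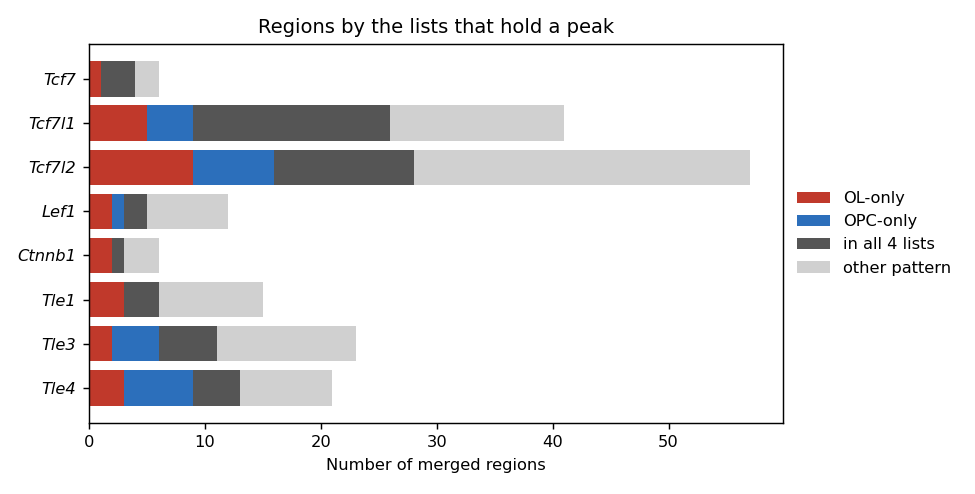
Number of merged regions (x axis) in each member (y axis), coloured by the lists that hold a peak. Tcf7l2 holds the most OL-only regions (9) and OPC-only regions (7), Tle4 has more OPC-only (6) than OL-only (3), and Tcf7, Ctnnb1 and Tle1 have no OPC-only region.

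Tcf7l2 held the most regions of the set, 57, with 9 OL-only, 7 OPC-only, 12 shared and 29 of another pattern, at 31 and 36 peaks in OLs against 37 and 27 peaks in OPCs. The OL-only regions held 2.41 and 2.28 kb of scaled covered sequence in OLs, and the OPC-only regions held 1.82 and 1.89 kb in OPCs. The nearly equal totals of this gene in OLs and OPCs therefore came in part from different stretches of DNA. The widest OL-only region, chr19:55806553-55807157, lay 65.1 kb into the gene and was covered over 605 and 499 bp in OLs, which is percentile 97.8 by size among all OL-only regions. Other wide OL-only regions lay 48.3 kb in (chr19:55789862-55790254, covered over 393 and 334 bp) and 120.1 kb in (chr19:55861707-55862170, covered over 256 and 427 bp).

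The OPC-only regions of Tcf7l2 were spread over the same gene body. The widest were chr19:55825529-55826193, 84.1 kb in, covered over 206 and 620 bp in OPCs, chr19:55876595-55877091, covered over 497 and 261 bp, and chr19:55923949-55924344, 182.3 kb in, covered over 354 and 396 bp. The last had the authors' fold enrichments of 12.3 and 11.6, the highest of its class in the gene. One OPC-only region, chr19:55742409-55742701, lay 0.758 kb from the start, between 2 shared regions, and was covered over 255 and 207 bp in OPCs. Its authors' folds of 2.69 and 2.79 lay at percentiles 0.656 and 1.18 of their lists. Another, at 55876595, lay 479 bp before a shared region that was wider in OLs, so that neighbouring stretches differed in opposite directions.

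Among the shared regions of Tcf7l2, 4 were wider in OLs by at least 1.5-fold with groups that did not overlap. The widest, chr19:55756609-55757773, 15.4 kb in, was covered over 1236 and 965 scaled bp in OLs, against 502 and 362 scaled bp in OPCs, a ratio of 2.55. The other 3 lay 56.8, 135.9 and 192.8 kb from the start, with ratios of 1.65, 2.13 and 2.998, the farthest of them past the 3′ end. Summed over its 12 shared regions, the gene had 5.06 and 4.24 kb in OLs, against 3.50 and 3.48 kb in OPCs. The shared region with the highest single authors' fold, reached in an OPC list, was chr19:55788315-55788777, and in both OL lists the shared region 153.8 kb in had a higher fold than it. Without the EpiSC5 OPC list the gene had 11 OL-only and 19 OPC-only regions, and without the 129O1 OL list 15 and 7. Leaving out a list loosens the rule, since only the remaining list of that cell type then decides.

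**Figure D4:**
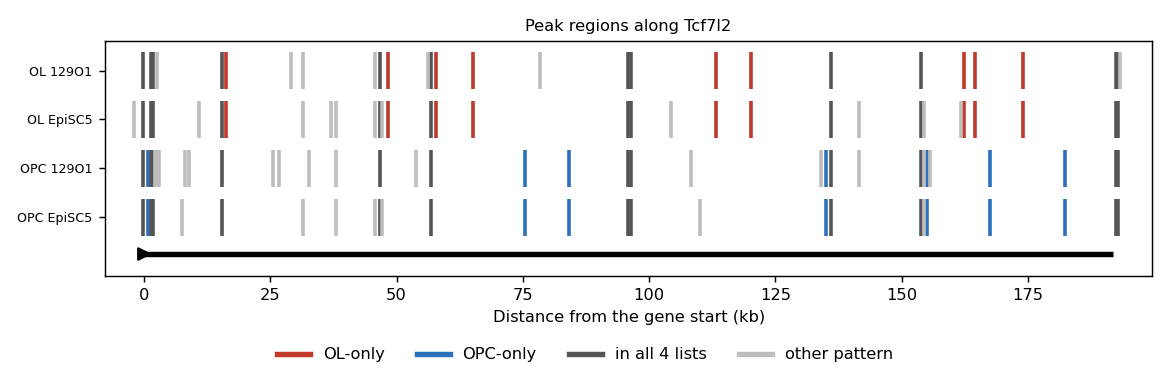
Peak regions along Tcf7l2, with distance from the gene start in kb on the x axis and 1 row per library; each tick marks the centre of a region at a fixed tick width, coloured by class, and the black line is the gene with an arrowhead at its start. The 9 OL-only regions lie between 16.2 and 174.0 kb and the 7 OPC-only regions between 0.758 and 182.3 kb, interleaved along the gene body.

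The internal start of Tcf7l2, 153.5 kb into the gene, had no peak over its window in any list, although a shared region began 98 bp downstream of it. That region, chr19:55895419-55895774, was covered over 294 and 269 scaled bp in OLs, against 301 and 321 scaled bp in OPCs. The first start lay in a shared region, chr19:55741243-55741957, with 553 and 618 scaled bp in OLs, against 526 and 633 scaled bp in OPCs. The groups overlapped at the first start. In the shared region near the internal start both OL values lay below both OPC values. That difference was less than the 1.5-fold used for a change in width. The next region, chr19:55895835-55896547, had 0 and 168 scaled bp in OLs, against 394 and 642 scaled bp in OPCs. After it lay an OPC-only region, chr19:55896585-55896804, with 226 and 185 scaled bp in OPCs.

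Tcf7l1 held 41 regions and was the member with the most shared ones, 17, beside 5 OL-only and 4 OPC-only regions. Its shared regions carried 7.74 and 6.50 kb in OLs, against 7.26 and 6.29 kb in OPCs. The OL-only regions were small, the largest being chr6:72677124-72677363, covered over 187 and 240 bp in OLs, and chr6:72706525-72706728, covered over 159 and 204 bp. The largest OPC-only regions, chr6:72653510-72653792, chr6:72660136-72660422 and chr6:72748390-72748712, were covered over 203 and 283 bp, 287 and 199 bp, and 165 and 323 bp in OPCs. Shared regions 121.8 and 33.6 kb from the start were wider in OLs, with 455 and 274 scaled bp in OLs against 154 and 100 in OPCs for the first, and 472 and 614 scaled bp in OLs against 152 and 231 in OPCs for the second. A shared region 45.0 kb in was narrower in OLs, at 94 and 98 scaled bp against 779 and 160 in OPCs, where 1 OPC library stands apart. The shared region with the highest single authors' fold, chr6:72636114-72636483, lay between percentile 82.4 and percentile 96.1 of its list in every library.

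Tcf7 held 6 regions, of which 3 were shared, 1 OL-only and 0 OPC-only. Its OL-only region, chr11:52245979-52246158, lay 369 bp beyond the 3′ end and inside the neighbouring gene Skp1, and 5.01% of the covered sequence counted for Tcf7 lay in other genes. The shared region over its start, chr11:52282558-52283544, was covered over 914 and 750 scaled bp in OLs, against 998 and 697 scaled bp in OPCs.

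Lef1 held 12 regions, 2 of them OL-only, 1 OPC-only and 2 shared, and its coverage was split by position. Within 2 kb of its first start it had 0.549 and 0.550 kb of scaled covered sequence in OLs, against 0.890 and 0.931 kb in OPCs, and the groups did not overlap. In a fit over the start windows of 9448 genes, added after the values had been seen, the log2 difference was -0.57 (95% interval -0.96 to -0.17) with an adjusted p of 0.0846 (limma), so it was not called; in that fit 3.95% of genes were called lower in OLs and 0.476% higher, and the median gene stood at -0.08. Beyond 2 kb of the start Lef1 had 0.836 and 0.937 kb in OLs, against 0.610 and 0.948 kb in OPCs, which overlap (log2 0.17, adjusted p = 0.640, limma). Both shared regions lay near the start and were narrower in OLs. The region 1.80 kb in, chr3:131111642-131112555, was covered over 534 and 442 scaled bp in OLs, against 788 and 735 in OPCs, and the region 0.934 kb in over 106 and 156 scaled bp in OLs, against 194 and 262 in OPCs.

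The Lef1 body held both OL-only and OPC-only regions. The OL-only region chr3:131186099-131186551, 76.0 kb in, was covered over 422 and 345 bp in OLs, at percentile 90.3 of OL-only regions by size, with authors' folds of 11.5 and 11.7. A smaller OL-only region lay 81.3 kb in (chr3:131191539-131191743, covered over 142 and 185 bp). The OPC-only region, chr3:131137182-131137333, was covered over 148 and 120 bp in OPCs.

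Ctnnb1 had its coverage concentrated at the start, where a shared region, chr9:120933193-120934730, was covered over 1629 and 1344 scaled bp in OLs, against 1582 and 1370 scaled bp in OPCs, a ratio of 1.01. Within 2 kb of the start lay on average 76.6% of its covered sequence in OLs and 92.7% in OPCs. Its OL-only regions, chr9:120942110-120942357 and chr9:120947885-120948022, were covered over 234 and 248 bp and over 138 and 121 bp in OLs. Outside the start, EpiSC5 OPCs had no peak in this gene. Beyond 2 kb of the start the gene had 0.422 and 0.476 kb in OLs, against 0.273 and 0 kb in OPCs, too little on average for it to be tested in the fit that leaves out starts.

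The counts of OL-only and OPC-only regions in the Groucho genes depended on the peaks and libraries used. With the best 50% of each list they were equal in each gene, at 1 and 1 in Tle1, 1 and 1 in Tle3, and 2 and 2 in Tle4. Leaving out a list loosens the rule here too. Without the EpiSC5 OL list Tle3 had 5 OL-only and 4 OPC-only regions, and without the 129O1 OPC list it had 3 and 8. Without the 129O1 OL list Tle1 had 6 and 0. With all lists, Tle4 held 6 OPC-only and 3 OL-only regions among 21. The OPC-only regions carried 1.14 and 1.53 kb in OPCs, and the OL-only regions 0.703 and 0.816 kb in OLs. The widest OPC-only regions were chr19:14507553-14508123, covered over 197 and 571 bp, and chr19:14566522-14566887, covered over 307 and 366 bp, and the widest OL-only region was chr19:14457943-14458371, covered over 240 and 429 bp. Within 2 kb of its start Tle4 had 1.87 and 1.72 kb in OLs, against 1.91 and 1.66 kb in OPCs (log2 0.01, 95% interval -0.32 to 0.34, limma). Beyond that it had 1.35 and 2.02 kb in OLs, against 2.27 and 3.38 kb in OPCs. The groups did not overlap there, and the log2 difference of -0.68 (95% interval -1.25 to -0.10, adjusted p = 0.0794, limma) was not called in the fit without starts, in which 7.36% of 6023 genes were called lower in OLs and 21.3% higher.

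Tle3 held 4 OPC-only and 2 OL-only regions among 23. One of the OL-only regions, chr9:61415933-61416834, 44.1 kb from the start and close to the 3′ end, was the largest OL-only region of the set. It was covered over 593 and 839 bp in OLs, at percentile 99.4 of all OL-only regions by size, with authors' folds of 12.8 and 12.1. The widest OPC-only region of Tle3, chr9:61397053-61397538, was covered over 186 and 486 bp in OPCs. The other OPC-only regions of Tle3 lay 1.198, 32.1 and 32.5 kb in. Their authors' folds were at or below percentile 3.98 of their lists. Tle1 held 3 OL-only and 0 OPC-only regions among 15, and its OL-only regions chr4:72161564-72161766 and chr4:72161875-72162108 lay next to each other and were covered over 203 and 135 bp and over 162 and 201 bp in OLs. A shared region of Tle1 54.7 kb in, chr4:72146071-72146434, was narrower in OLs, at 106 and 150 scaled bp, against 295 and 300 in OPCs. A shared region of Tle3 12.8 kb in was narrower too, at 386 and 398 scaled bp in OLs, against 691 and 636 in OPCs.

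**Figure D5:**
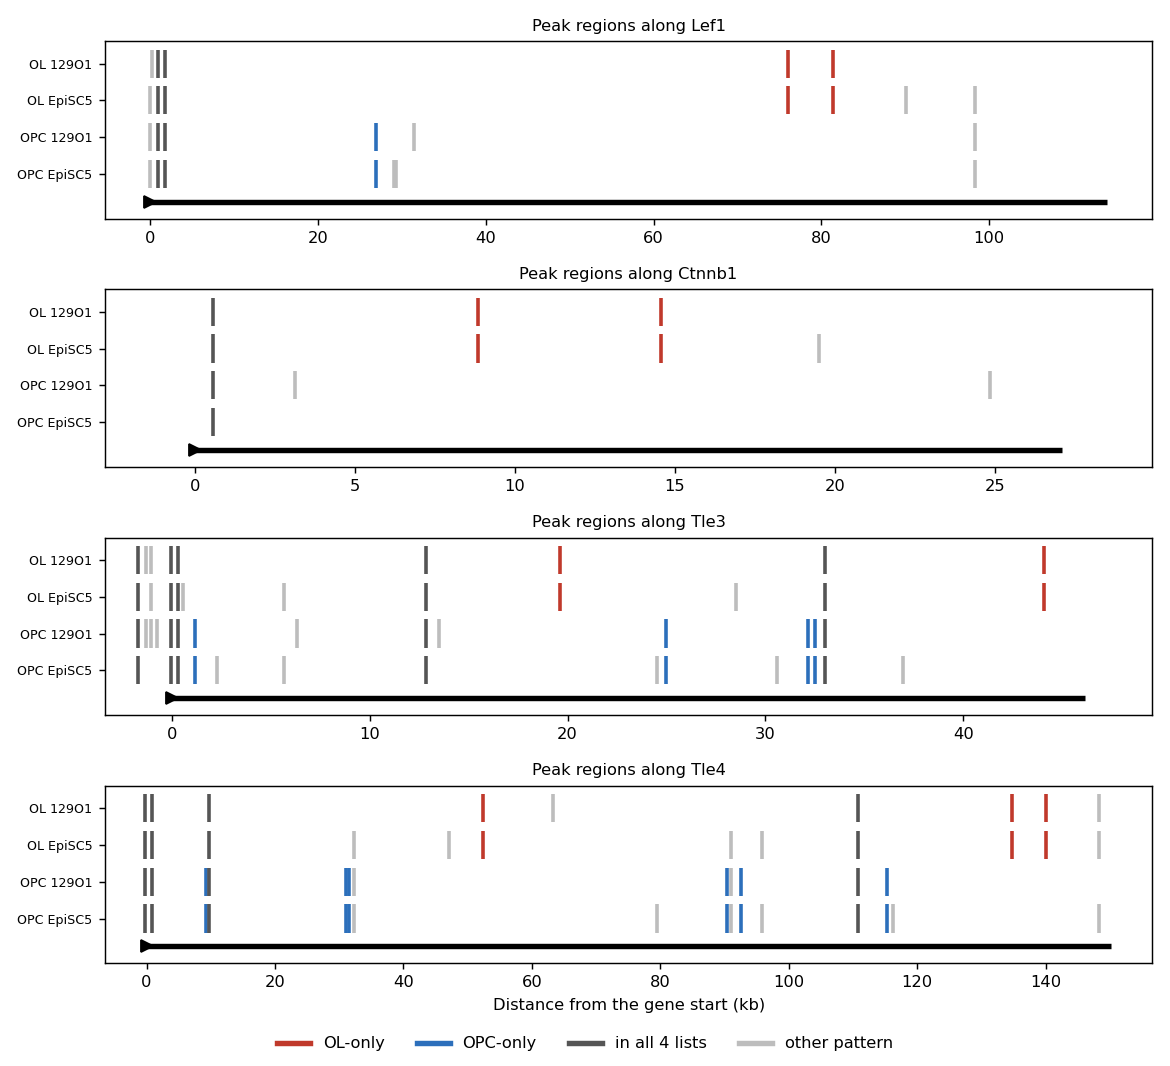
Peak regions along Lef1, Ctnnb1, Tle3 and Tle4, with distance from the gene start in kb on the x axis, 1 row per library, and ticks of fixed width at region centres coloured by class. The OL-only regions of Lef1 lie 76.0 and 81.3 kb in, those of Ctnnb1 8.83 and 14.6 kb in, and the 6 OPC-only regions of Tle4 between 9.27 and 115.3 kb.

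Over all 8 genes, 6 of 47 shared regions were wider in OLs by at least 1.5-fold with no overlap between groups, beside 9.10% of shared regions in all genes, and 6 were narrower, beside 15%. Both OL libraries lay above both OPC libraries in 9 of the 47, against 17.3% of all shared regions, and below both in 14, against 30.3%. Of the 6 wider ones 4 lay in Tcf7l2 and the other 2 in Tcf7l1. The narrower ones were in Tcf7, Tcf7l1, Lef1 (both of its shared regions), Tle1 and Tle3.

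The starts themselves were mostly open in both cell types. RefSeq gave 15 start windows (250 bases before to 50 after a start) for the 8 genes, and 11 of them touched a peak of all 4 lists, while 2 touched none. Some windows of the same gene overlap. The 11 include a Lef1 window 2.49 kb in with only 13 and 1 bp of peak in OLs, against 10 and 15 bp in OPCs. For 7 of the 8 genes the first start touched a peak in all 4 lists. This compares with 53.8% of first starts of all protein-coding genes, which were not filtered on coverage. Of the 7 further starts, 4 did so, against 52.2% of such starts in all genes, and 2 touched no peak, against 35.9%. Lef1 was the exception, since its first window held no peak in 129O1 OLs and 91 bp of peak in EpiSC5 OLs, against 128 bp in 129O1 OPCs and 130 bp in EpiSC5 OPCs. The 11 windows with peaks in all 4 lists had a median GC content of 73.0%, against 62.7% for such windows of all genes, and the 2 with none had 42.8%, against 47.3%. The letters CTTTGAA or CTTTGAT, which are forms of the TCF/LEF recognition sequence, were in none of the 15 windows on either strand, and in 7.57% of 21263 windows of all protein-coding genes.

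Genes around the members in the pathway were read from lists of known function. Of 17 genes that relay the signal or control beta-catenin turnover, 5 were called higher in OLs and 1 lower, beside 11% and 8.63% of all tested genes, with a median log2 difference of 0.18 against -0.02 for all tested genes. Tnks, a tankyrase that marks Axin for destruction, had 4.73 and 4.69 kb in OLs against 2.85 and 2.47 kb in OPCs (1.72-fold, adjusted p = 0.00104, limma). Gsk3b, the kinase that marks beta-catenin for destruction, had 5.85 and 6.19 kb in OLs against 4.18 and 3.15 kb in OPCs (1.62-fold, adjusted p = 0.00312). In both genes every OL library lay above every OPC library. The ubiquitin ligase adaptors Btrc and Fbxw11 were 1.42-fold and 1.41-fold higher in OLs. Rnf146, a ligase that acts with tankyrase, was 1.43-fold higher, though 90.4% of its covered sequence lay in other genes. Within 2 kb of the first start Gsk3b, Fbxw11 and Rnf146 had log2 differences of 0.10, 0.02 and 0.06, none called (adjusted p = 0.999684, limma). Beyond it Gsk3b and Fbxw11 had 1.15 and 0.65 (adjusted p = 0.0112 and 0.0127, limma). In that fit 21.3% of all genes were called higher in OLs, against 0.476% at starts. The shares over all genes were not matched for gene length. Apc2, a relative of the scaffold Apc, had 0.694 and 0.737 kb in OLs against 1.25 and 1.53 kb in OPCs, and 36.7% of its covered sequence lay in other genes. Its log2 difference of -0.79 became -0.0962 by 200 bp around summits (adjusted p = 0.850, limma).

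Of 18 nuclear partners of TCF/LEF, 2 were called higher in OLs and 0 lower, with a median log2 difference of -0.02. Beside the 11% of all tested genes called higher and the 8.63% called lower, the share called higher is at the background. Tle2, the fourth full-length Groucho gene, was one of them and had 1.796 and 1.6 kb in OLs against 0.707 and 0.906 kb in OPCs (log2 0.92, adjusted p = 0.00103, limma), with 17.1% of its covered sequence in other genes. By number of peaks its log2 difference was 0.0596 and with 20 kb flanks 0.17, neither called (adjusted p = 0.880 and 0.358, limma). Smarca4 encodes the ATPase of the BAF chromatin remodelling complex. It had 3.44 and 3.42 kb in OLs against 2.12 and 2.38 kb in OPCs (log2 0.57, adjusted p = 0.0124, limma). Within 2 kb of its first start the log2 difference was 0.03 (adjusted p = 0.999684, limma). Beyond that it was 0.96 (adjusted p = 0.0124, limma).

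Of 13 known target genes of the pathway, 11 were tested, 0 were called higher in OLs and 3 lower, beside 11% and 8.63% of all tested genes, with a median log2 difference of -0.18. Ccnd1, the gene of a G1 cyclin, had 0.938 and 0.852 kb in OLs against 2.12 and 1.69 kb in OPCs (log2 -0.94, adjusted p = 0.00072, limma), with 24.95% of its covered sequence in other genes. Znrf3 and Rnf43 encode ligases that remove Wnt receptors from the cell surface. They had log2 differences of -0.53 and -0.44 (adjusted p = 0.0138 and 0.0469, limma). Both lost the call with median-of-ratios scaling and in limma without the mean-variance trend. Of the covered sequence of Rnf43, 24.0% lay in other genes. Axin2, the most widely used readout of the pathway, had 2.77 and 2.75 kb in OLs against 2.53 and 2.70 kb in OPCs and was not called (adjusted p = 0.816, limma). Without scaling of the lists, 10 of the 11 pathway genes called here lost the call, all but Ccnd1, and 9 lost it by number of peaks and 9 by summits, all but Tnks and Ccnd1. Leaving out 1 library cost the call at least once for each but Gsk3b, Tnks, Tle2 and Ccnd1.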

How the data were processed

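Omni-ATAC-seq libraries, 2 of OLs and 2 of OPCs, were read as the authors' deposited peak lists, 1 per library, so peaks were called per library and not on pooled libraries. The submitters' processing notes name mm10 and the tools MACS2, Picard, Bowtie2 (2.3.2) and Trim Galore (0.3.1); the caller's settings, duplicates and any Tn5 shift are not stated there. Each deposited peak carries the authors' score, their fold enrichment over background as a ratio, and its −log10 q beside its −log10 p. These values served to describe and rank peaks of 1 list, never to compare lists, and −log10 q began at 3.00 to 3.03. A wide peak and a strong peak are not the same thing, and covered length measures width.

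Gene intervals and start windows came from RefSeq GRCm38.p6; all members and list genes matched by symbol, and exons and introns were not annotated in the tables used here. Base pairs inside peaks were summed per gene with 2 kb each side, scaled to the mean list total (factors 1.13 and 0.965 in OLs, 1.03 and 0.901 in OPCs), and tested as log2(bp + 200) over genes with a mean of at least 500 bp with limma 3.58.1 in R 4.3.3 (mean-variance trend, 4 libraries, two-sided, Benjamini-Hochberg adjustment over 14543 genes, threshold 0.05). Because of the added 200 bp, folds of genes with little coverage are understated. On simulated data the fit recovered 59.4% of genes changed by log2 0.5 and 100% of those changed by log2 1. The simulated noise was normal, independent between libraries, with a spread set by coverage alone and no line effect. These rates may therefore be too high for the real lists. The cell line pairs the libraries: across 14543 genes, the 129O1 minus EpiSC5 difference in OLs and in OPCs had r = 0.287 (genes are not independent replicates). Fits with the line as a block, without single libraries, and with other scalings, measures, filters and flanks were run as alternatives. The fits within 2 kb of the first start and beyond it were added after seeing the data.

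The members and all lists (3 of the pathway, 7 of markers) were chosen with earlier results of these data known. The text names all 8 members, every pathway gene past the threshold and up to 2 genes per marker list by coverage. Per member it names up to 3 OL-only and 3 OPC-only regions by coverage and the shared region of highest fold. Cldn5, Pou5f1, Zfp42, Sall4, Axin2, Prrx1, and the other regions were added after their values were seen. The result for 1 OPC marker gene is not reported here.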

Additional observations from a re-analysis of the deposited data

Results flagged for a closer look

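In 3 members the difference between OLs and OPCs had opposite signs in the 2 cell lines, with 1 library per cell type and line, so the difference between lines was not tested. For Tcf7 the log2 difference, OL minus OPC, was 0.15 in EpiSC5 and -0.18 in 129O1, which differ by 0.33. Tle1 had 0.18 in EpiSC5 and -0.15 in 129O1, which also differ by 0.33. Tcf7l1 had 0.03 in EpiSC5 and -0.02 in 129O1, which differ by 0.06.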

How the results depend on the processing

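With the cell line as replicate block, 1602 genes were called higher in OLs and 1306 lower, 0 members were called, and the block changed no call among the pathway genes named. No member was called under any setting but 1: leaving out single libraries gave 0 to 1 members (Tle4). Among all genes, main counts of 1602 higher and 1255 lower became 197 and 386 without scaling (median gene at log2 -0.13), 517 and 254 by number of peaks, 516 and 226 by 200 bp around summits, 883 and 754 with the best 50% of each list, and 994 to 1386 and 820 to 1107 without 1 library; median-of-ratios scaling gave 741 lower, the fit within 2 kb of starts 45 and 373, and the fit beyond them 443 lower. OL-only, OPC-only and shared regions (27, 22 and 47) became 15, 9 and 20 with the best 50%. When a peak had to cover 50% of the region, 30 were shared. Without 1 library OL-only regions numbered 30 to 44 and OPC-only 22 to 47, under a looser rule with only the remaining list of that cell type. The small log2 differences of several members changed sign, all without a call. Tcf7 went to 0.0067 (median-of-ratios), 0.16 (peaks), 0.16 (summits), 0.0014 (best 50%), 0.0369 (equal list lengths) and -0.22 to 0.19 (without 1 library). Tcf7l1 had -0.11 (no scaling), -0.0831 (peaks), -0.088 (summits), -0.0338 (20 kb flanks), -0.0077 (equal lengths) and -0.0711 to 0.0848 (without 1 library). Tcf7l2 had -0.0425, -0.0497 and -0.0643 (no scaling, peaks, summits), -0.18 at starts and -0.003 to 0.15 (without 1 library). Tle1 had -0.0938 (no scaling), -0.0914 (best 50%), -0.0435 at starts and -0.12 to 0.15 (without 1 library). Lef1 had 0.36 (best 50%) and 0.17 beyond starts, Tle3 0.0717 and Tle4 0.0104 at starts, and Rnf43 0.0036 (peaks) and 0.0277 (summits). The causes were not tested. Depth is unknown, so a site without a peak cannot be called closed.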
